A study of Drosophila melanogaster with 6 samples.

Results

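The genes described are the nuclear genes named for the oxidative phosphorylation complexes of the fruit fly Drosophila melanogaster. They were chosen by symbol alone: every gene of the deposited count tables whose Ensembl name starts with ND-, Sdh, UQCR-, COX and a digit, or ATPsyn. This gave 88 of 17411 genes, of which 40 belong to complex I, 8 to complex II, 9 to complex III, 16 to complex IV and 15 to complex V. By name, 63 are subunits, 24 are L-type paralogues (symbol ending in L, or in L and a digit) and 1, Sdhaf3, is an assembly factor. ND-MNLL ends in L but is the name of a complex I subunit and was counted as one.

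The study made polyA-selected RNA-seq libraries from fly intestines, 3 in which Mex-Gal4 drove an RNAi construct against 9G8 and 3 controls in which Mex-Gal4 drove double-stranded RNA against GFP. Mex-Gal4 is a driver of the enterocytes, the absorptive cells of the midgut, so the muscle, progenitor and endocrine cells of the same intestines lie outside its main range. Both groups carry the driver and a double-stranded RNA, and the labels give no age, sex or number of pooled animals, nor do they say that replicates A, B and D came from separate cohorts, so p-values measure only the spread between these libraries. The label "control fat bodies" on the control libraries and the driver yolk-Gal4 in the series description disagree with the sample titles and genotypes, which were followed here.

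Oxidative phosphorylation takes place in the inner mitochondrial membrane. Complexes I and II pass electrons from NADH and succinate to ubiquinone, complex III passes them on to cytochrome c, complex IV to oxygen, and complex V uses the resulting proton gradient to make ATP. Complexes I, III, IV and V combine subunits of the nuclear and the mitochondrial genome, whereas complex II is nuclear throughout. In flies many nuclear subunit genes have a duplicate that is known mainly from the testis. Enterocytes are rich in mitochondria, which supply the energy for secretion and uptake.

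Library totals ran from 26216430 to 66562756 counts, and between 2079 and 6091 genes had no count. The target gene x16 (the fly name of 9G8) had 6.37, 11.5 and 6.59 TMM-scaled CPM (read count per library size, the size being scaled by the trimmed mean of M values) in 9G8-RNAi A, B and D, against 8.29, 7.15 and 20.04 in control A, B and D. The groups overlapped, and the log2 difference was -0.53 ± 0.46 (SE, edgeR quasi-likelihood test, Benjamini-Hochberg adjusted p = 0.918; exact two-sided permutation p = 0.5, smallest possible 0.1). Without control D it was 0.182, so the target gene gives no check of the labels. Midgut markers, mostly digestive enzymes, made up 66670 to 207900 CPM of total counts in every library, and all 9 were present in each. The fat body marker list reached 116 to 628 CPM. Muscle markers summed to 6567 CPM in control A and to 287 to 644 CPM in the other 5 libraries, and Malpighian tubule markers to 1222 CPM in control A against 56.8 to 262 CPM elsewhere. Most of that tubule sum in control A came from NKCC (607 CPM) and Irk2 (385 CPM). Uro, Oatp58Db and Ugt317A1 were also highest in control A in CPM of total counts. In TMM-scaled CPM, Uro was higher in 9G8-RNAi B (98.4) than in control A (73.9). In contrast, salt at 90.7 CPM was below 9G8-RNAi B (154 CPM) and D (135.5 CPM), and Ir7a was near 0 throughout. Control A therefore stands apart. The medians over all members and by complex, and some single genes, are given with and without it. The medians of gene lists, of core and accessory subunits and of places in complex V, and the length relation, are given with it only.

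Per unit of exonic length, the complex IV subunits were the most abundant among the genes chosen by symbol, which leave out subunits under other names. Levels between genes were compared in TPM, computed from the deposited counts and exonic lengths. The median subunit stood at 1005 TPM in complex IV, 328 in complex V, 252 in complex II, 203 in complex III and 187 in complex I. The order of subunits was similar across libraries: over the 60 subunits tested, Spearman's rho of TPM between pairs of libraries had a median of 0.945 and a minimum of 0.81 (15 pairs, across genes that share a library, given as a description).

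**Figure D1:**
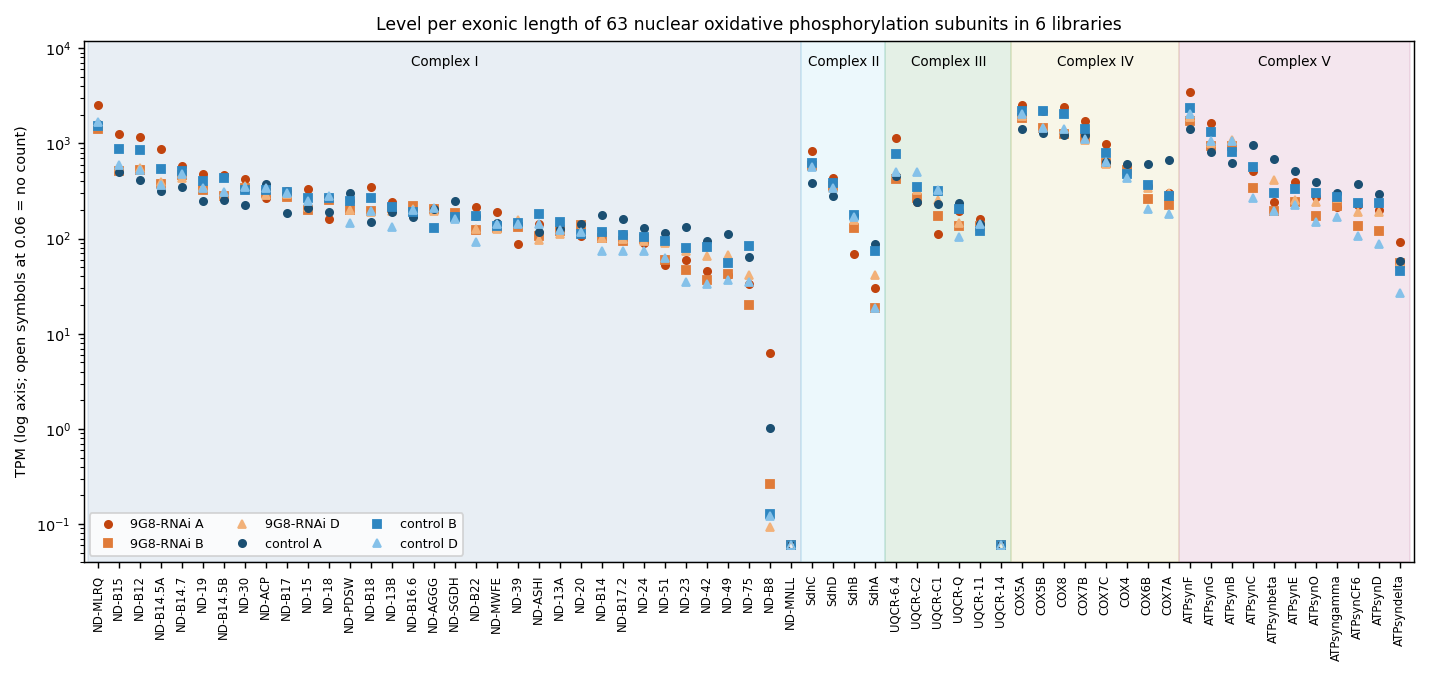
TPM (log axis) of the 63 subunits, ordered by mean level within complexes I to V, with 1 symbol per library and subunits without a count at the bottom edge. Levels within complex I run from ND-MLRQ at a mean of 1716 TPM to ND-75 at 46.3 TPM, with ND-B8 at 1.32 TPM and ND-MNLL at 0.

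Within complex I, the conserved core was lower than the added subunits. The 7 nuclear core subunits, which hold the flavin and the iron-sulfur clusters, had a median of 79.1 TPM with means from 46.3 (ND-75) to 338 (ND-30). The 27 accessory subunits had a median of 196 TPM and reached 1716 TPM in ND-MLRQ, whose mammalian counterpart is now counted with complex IV. ND-B15 followed at 720 ± 296 TPM (SD, n = 6 libraries) and ND-B12 at 676 ± 288 TPM. ND-B15 was the higher of this pair in every library but 9G8-RNAi B, where it read 519 against 522 TPM. In complex II the membrane anchors SdhC and SdhD averaged 601 ± 145 and 357 ± 49.9 TPM. The flavoprotein SdhA, which carries the catalytic site, averaged 45.1 ± 29.1 TPM and the iron-sulfur subunit SdhB 146 ± 42.2 TPM. SdhA stayed below the lowest SdhC and SdhD values in every library.

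Among the complex III members the small subunit UQCR-6.4 led with 625 ± 277 TPM, ahead of the core proteins UQCR-C2 (323 ± 99.4 TPM) and UQCR-C1 (235 ± 81.8 TPM). In control D, however, UQCR-C2 at 504.1 TPM was above UQCR-6.4 at 496.5 TPM. Among the complex IV members COX5A led with 1984 ± 371 TPM. COX5B (1675 ± 408 TPM) and COX8 (1614 ± 500 TPM) were below it in every library, COX5B by little in control B (2170 against 2172 TPM). COX6B and COX7A had the lowest means of the 8 complex IV subunits, at 358 ± 141 and 326 ± 171 TPM. In control A, COX4 at 612.4 TPM was below COX6B at 613.8 and COX7A at 661.7 TPM. In complex V the membrane subunit ATPsynF had the highest mean of all 88 genes at 2134 ± 715 TPM, a rank that rests on 9G8-RNAi A, since without it ATPsynF averaged 1871 and COX5A 1876 TPM. It was followed in its complex by ATPsynG at 1130 ± 304 TPM and the peripheral stalk subunit ATPsynB at 898 ± 166 TPM. The catalytic subunit ATPsynbeta averaged 341 ± 190 TPM, the rotor shaft subunit ATPsyngamma 239 ± 48.1 TPM and the central stalk subunit ATPsyndelta 55.4 ± 21.0 TPM. UQCR-6.4 and ATPsyndelta share 40.5% and 35.6% of their exonic bases with a gene on the other strand. Reads in such bases may be uncounted, so the TPM of both may be too low. As groups, the membrane subunits of complex V had a median of 832 TPM, the catalytic head and central stalk 239 TPM and the peripheral stalk 234 TPM.

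The division of the summed level among the 5 complexes was nearly the same in all 6 libraries. Complex I held 34.2%, 34.6% and 33.2% of the summed TPM of the 88 genes in 9G8-RNAi A, B and D, against 32.7%, 32.7% and 34.1% in control A, B and D. Complex IV held 32.7%, 32.8% and 31.1% against 31.6%, 33.5% and 31.8%. Complex V held 23.7%, 22.6% and 25.4% against 26.4%, 23.3% and 22.8%. Complexes III and II held 5.07% to 6.65% and 3.91% to 4.90%. The Rieske protein RFeSP, cytochrome c1, blw and the complex IV subunits levy and cype carry other symbols and are not in these sums. The shares therefore describe the genes chosen by symbol and not whole complexes. The groups overlapped for each complex. The share of complex III was 5.33% ± 0.23 (SD, n = 3) in 9G8-RNAi and 6.05% ± 0.63 in control libraries, and here 9G8-RNAi D at 5.53% exceeded control A at 5.39%.

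**Figure D2:**
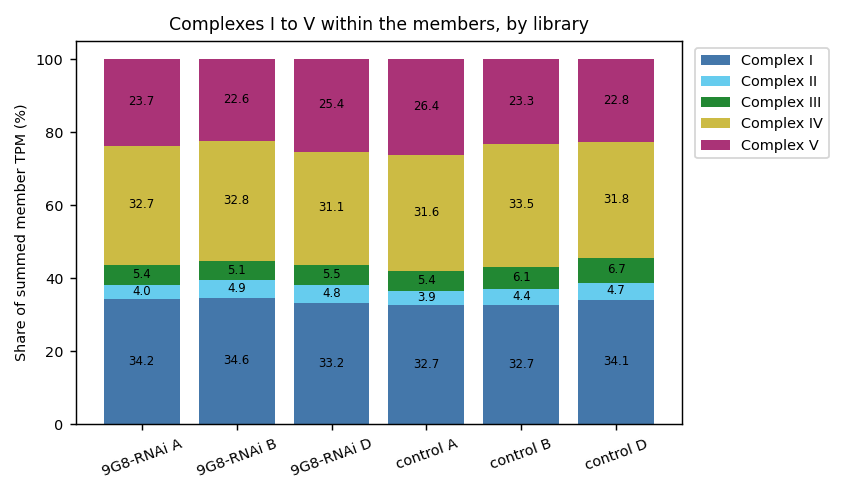
Share of the summed TPM of the 88 genes (percent, stacked bars from 0 to 100) held by complexes I to V in each of the 6 libraries. Complex I stays between 32.7% and 34.6% and complex IV between 31.1% and 33.5% in every library.

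The summed level itself differed more, and its order depended on the scale. The 88 genes took 3.39%, 2.14% and 2.20% of all counts in 9G8-RNAi A, B and D, against 1.96%, 2.56% and 2.18% in control A, B and D. 9G8-RNAi A was the highest library on every scale computed, with the 60 tested subunits at 39686 TMM-scaled CPM, 33894 CPM of total counts and 34188 TPM. Control A was the lowest for 47 of the 60 subunits in TMM-scaled CPM, for 27 in CPM of total counts and for 19 in TPM. In the same way control D lay over 2-fold above control A for 38 subunits in TMM-scaled CPM but for 3 in CPM of total counts and 1 in TPM. TMM factors ran from 0.635 in control D to 1.68 in control A, so the gap between those 2 libraries depends on the scaling. In bulk tissue, fewer cells of a type and less RNA per cell cannot be told apart.

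The comparison of 9G8-RNAi with control asks whether these transcripts differ where an RNAi construct against this splicing factor was driven in enterocytes. A lowering of the x16 transcript itself was not established in these libraries, as given above. None of the 65 members tested passed the threshold (edgeR quasi-likelihood test over 9285 genes, Benjamini-Hochberg adjusted p under 0.05; the lowest adjusted p of a member was 0.918). Across all genes the same rule called 11, or 0.118%, of which 8 were higher in 9G8-RNAi and 3 lower. DESeq2 and limma-voom also called 0 members. At an unadjusted p under 0.05 the fit listed 2 members, ATPsyndelta and COX7AL2, beside 421 genes in all, or 4.53%. In TMM-scaled CPM the groups did not overlap for 1 member, ATPsyndelta, which was higher in each 9G8-RNAi library, against 4.81% of all genes. No member was lower in each 9G8-RNAi library, against 3.79% of all genes.

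The estimates leaned to the higher side, but that lean rested on single libraries. Of the 65 members, 51 had a log2 difference above 0, where 44.3% of all genes tested did, and their median was 0.25 against -0.07 for all genes. Without 9G8-RNAi A, 27 of 66 members were above 0 with a median of -0.07. Without control A, 30 of 66 were above 0 with a median of -0.02. Without control D, the other way, 62 of 67 were above 0 with a median of 0.72. With total counts as the only scaling, which moves the median of all genes to -0.33, 43 of 65 were above 0 with a median of 0.19. The marker values of control A given above stand beside this, and their part in it was not tested.

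**Figure D3:**
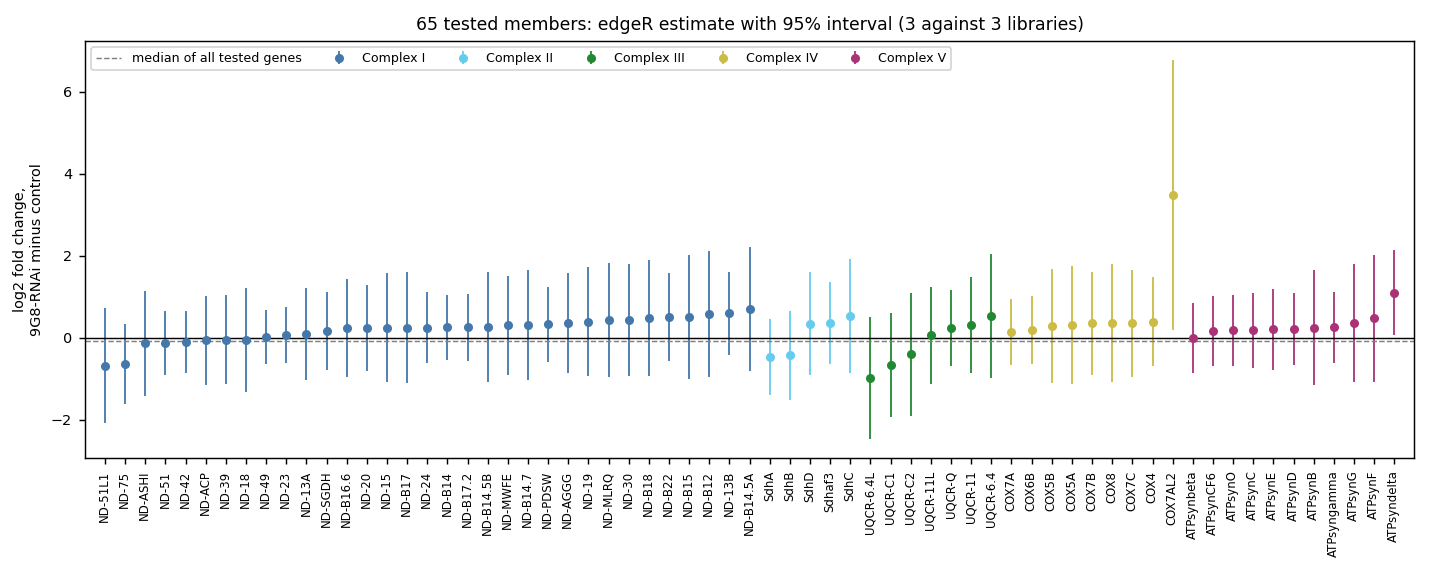
Log2 fold change (9G8-RNAi minus control) of the 65 tested members with its 95% interval from the edgeR fit, ordered within complexes; the dashed line marks the median of all tested genes, -0.07. Every interval but those of ATPsyndelta and COX7AL2 includes 0, and none of the adjusted p-values is below 0.918.

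By complex, the median log2 difference of the tested subunits was 0.253 in complex I (25 of 32 above 0), -0.037 in complex II (2 of 4), 0.246 in complex III (3 of 5), 0.340 in complex IV (8 of 8) and 0.219 in complex V (10 of 11). With the tested assembly factor and paralogues counted in, complex II stood at 0.35 (3 of 5) and complex III at 0.06 (4 of 7), the latter being the value of the low-count paralogue UQCR-11L itself. Leaving out 9G8-RNAi A gave subunit medians of 0.003 in complex I, -0.085 in complex II, -0.298 in complex III, -0.082 in complex IV and -0.110 in complex V. Leaving out control A gave -0.061, -0.314, -0.056, -0.025 and 0.027 in the same order. Leaving out control D gave 0.457 to 0.830 in all 5 complexes. Complex II also had small positive medians, 0.039 to 0.081, without 9G8-RNAi B, 9G8-RNAi D or control B, and complex V stood at -0.018 with total counts as the only scaling. No complex therefore had a direction that every library upheld.

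Complex I core subunits had a median log2 difference of 0.08 (5 of 7 above 0) and accessory subunits one of 0.27 (20 of 25). The iron-sulfur core subunit ND-75, with the smallest p of complex I, read 130, 71.99 and 98.1 TMM-scaled CPM in 9G8-RNAi A, B and D against 88.5, 214 and 160 in control A, B and D. Control A fell among the RNAi libraries and the other controls above them, and the log2 difference was -0.63 ± 0.42 (SE; edgeR adjusted p = 0.918; 95% interval -1.60 to 0.35). ND-13B, an accessory subunit, read 214, 168 and 105 against 59.5, 123 and 138 TMM-scaled CPM. Here 9G8-RNAi D fell among the controls, and the log2 difference was 0.61 ± 0.44 (edgeR adjusted p = 0.918), 0.283 without control A and 0.358 without 9G8-RNAi A. Among the most abundant accessory subunits, ND-MLRQ read 2042, 1040 and 733 against 455, 784 and 1585 TMM-scaled CPM, with the highest value in 9G8-RNAi A and the lowest in control A. ND-49, the core subunit next to the quinone site, varied little on this scale, at 98.5, 92.8 and 96.1 against 94.2, 85.7 and 102 TMM-scaled CPM (95% interval of the log2 difference -0.63 to 0.69). In TPM it ran from 36.5 to 112, so that steadiness depends on the scale.

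Complex II divided by subunit. SdhA read 125, 69.0 and 103 TMM-scaled CPM in 9G8-RNAi A, B and D against 127, 194 and 91.0 in control A, B and D, with 2 of the 3 controls above every RNAi library. Its log2 difference was -0.48 ± 0.40 (edgeR adjusted p = 0.918) and -0.143 without control B. SdhB read 125, 212 and 172 against 114.6, 209 and 358 TMM-scaled CPM. Its difference of -0.42 ± 0.47 (edgeR adjusted p = 0.918) rested on control D, without which it was 0.156. The anchor SdhC read 1131, 713 and 503 against 186, 538 and 890 TMM-scaled CPM, a log2 difference of 0.54 ± 0.61 (edgeR adjusted p = 0.918) that was 0.176 without 9G8-RNAi A and 0.079 without control A. In all 3 genes the groups overlapped.

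In complex III the core proteins UQCR-C1 and UQCR-C2 had estimates below 0 and the small UQCR-6.4 one above 0, each resting on 1 library. UQCR-C2 had a log2 difference of -0.40 ± 0.65 (edgeR adjusted p = 0.925), which was 0.633 without control D. UQCR-C1 read 272, 384 and 368 TMM-scaled CPM in 9G8-RNAi A, B and D against 200, 497 and 923 in control A, B and D, with control A below and the other controls above the RNAi libraries. Its log2 difference of -0.66 ± 0.55 (edgeR adjusted p = 0.918) was 0.052 without control D. UQCR-6.4 read 940, 320 and 242 against 134, 414 and 489 TMM-scaled CPM, and its difference of 0.53 ± 0.66 (edgeR adjusted p = 0.918) was -0.298 without 9G8-RNAi A. As a share of the 6 complex III subunits in TPM, which no scaling factor touches, UQCR-6.4 took 61.3% in 9G8-RNAi A and 31.7% to 43.6% in the other 5 libraries, while UQCR-C1 took 6.09% there and 15.3% to 20.5% elsewhere. The exons of UQCR-6.4 overlap those of POSH on the other strand over 40.5% of their length. The sources used here do not name the strand setting. Of genes with all exonic bases shared with the other strand alone, 132 of 133 had no count. Reads in such bases thus went largely uncounted, and the level and share of UQCR-6.4 may be too low.

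All 9 tested members of complex IV had estimates above 0, from 0.15 (COX7A) upward, with 95% intervals that include 0 for the 8 subunits. COX4 read 1069, 875 and 560 TMM-scaled CPM in 9G8-RNAi A, B and D against 399, 565 and 942 in control A, B and D. The groups overlapped, and the log2 difference was 0.39 ± 0.47 (edgeR adjusted p = 0.919), 0.178 without 9G8-RNAi A and 0.101 without control A. COX7B read 1077, 650 and 409 against 273, 572 and 825 TMM-scaled CPM. Its difference of 0.36 ± 0.54 (edgeR adjusted p = 0.922) was -0.07 without 9G8-RNAi A and -0.018 without control A. COX5A, the most abundant complex IV subunit among the members, read 2984, 2006 and 1372 against 591, 1659 and 2832 TMM-scaled CPM. This was the same pattern of a high 9G8-RNAi A and control D and a low control A. The complex IV subunit levy, whose symbol lies outside the rule, was above COX5A in 9G8-RNAi A (3693) and control B (1785). It was below COX5A in the other libraries.

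ATPsyndelta, the central stalk subunit of complex V, lies on X (10212970 to 10217393, plus strand, build BDGP6). It was the one subunit whose groups did not overlap in TMM-scaled CPM. It read 517, 286 and 193 TMM-scaled CPM in 9G8-RNAi A, B and D against 116, 166 and 181 in control A, B and D. The lowest RNAi library exceeded the highest control by little, and on the TPM scale, at 91.2, 55.2 and 56.4 against 57.6, 45.3 and 26.9, control A lay above 2 RNAi libraries. The log2 difference was 1.11 ± 0.45 (edgeR unadjusted p = 0.0384, adjusted p = 0.918), a fold of 2.15 with a 95% interval of 1.05 to 4.39. Without 9G8-RNAi A it was 0.639, and over the other settings and libraries left out it ran from 0.879 to 1.38 with adjusted p from 0.48 upward. Of its exonic bases 35.6% are shared with CG2962 on the other strand. CG2962 had no count in any library, but all its own exonic bases are shared. Of genes with all exonic bases shared, 548 of 552 had no count, so the 0 of CG2962 gives no level. Reads in the shared part of ATPsyndelta may likewise be uncounted.

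The other complex V subunits had estimates close to 0 or within their spread. ATPsyngamma read 462, 431 and 347 TMM-scaled CPM in 9G8-RNAi A, B and D against 231, 381 and 429 in control A, B and D, a log2 difference of 0.25 ± 0.38 (edgeR adjusted p = 0.921) that was -0.005 without control A. ATPsynF read 3147, 1422 and 1042 against 456, 1376 and 2192 TMM-scaled CPM, and its difference of 0.48 ± 0.67 (edgeR adjusted p = 0.919) was -0.123 without 9G8-RNAi A. The catalytic ATPsynbeta stayed between 630 and 884 TMM-scaled CPM in all 6 libraries but ran from 195 to 691 in TPM, with a log2 difference of -0.01 and a 95% interval of -0.86 to 0.85. An interval of this width leaves room for a change of over 1.5-fold in either direction. By place, the 4 membrane subunits had a median log2 difference of 0.29, the 4 peripheral stalk subunits 0.20 and the 3 of the head and central stalk 0.25, values closer to each other than the SE of any single subunit.

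Taking each subunit relative to the mean of the 60 tested subunits within its own library removes the scaling factor, and showed how the subunits varied among themselves. This description was added after the values had been seen. The steadiest were ND-13A (SD of the relative log2 level over 6 libraries 0.157), COX4 (0.177) and COX7B (0.180), and the most variable SdhA (0.807), UQCR-C1 (0.647), ATPsynbeta (0.620), ND-75 (0.611) and SdhB (0.593). SdhA ran from 1.09 above its mean in control A to 0.81 below it in 9G8-RNAi B. On this relative scale the groups did not overlap for ATPsyndelta and ND-13B, both higher in 9G8-RNAi. No share over all genes was computed on this scale.

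In control A, the library with the high muscle and tubule sums, most complex V and complex I core subunits stood high relative to the other subunits. There 8 of 11 complex V subunits and 6 of 7 complex I core subunits lay above their own mean over the libraries, with medians of 0.56 and 0.48 on the log2 scale, while 7 of 25 accessory subunits did, with a median of -0.20. ATPsynbeta reached 1.05, COX7A 1.02, ND-49 0.89, ND-23 0.88 and ATPsynC 0.83, while the core subunit ND-30 stood at -0.69 and ATPsyndelta at 0.01. In control D the complex V median was -0.39. Whether other tissue in control A takes part in this was not tested.

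**Figure D4:**
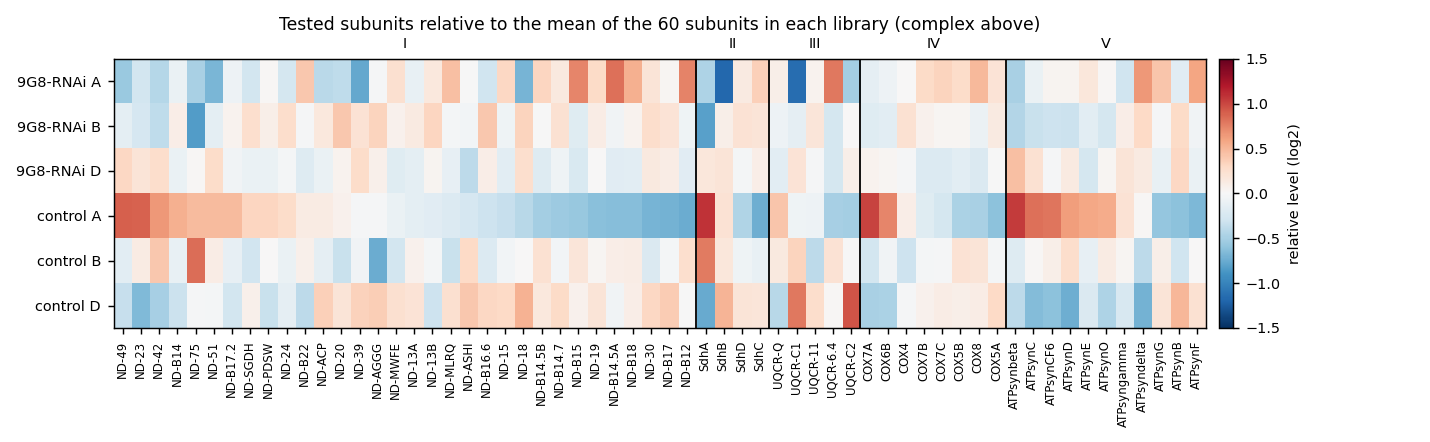
Relative level (log2, colour) of the 60 tested subunits in each library, after subtracting the mean of the 60 subunits in that library and the mean of the subunit over the 6 libraries, grouped by complex and ordered by the value in control A. Control A shows ND-49, ND-23, SdhA, COX7A and ATPsynbeta at 0.88 or more above their means, and 9G8-RNAi A shows SdhB and UQCR-C1 at over 1.1 below theirs.

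With all 6 libraries in the fit, shorter genes had the higher estimates. Across the 60 tested subunits the log2 difference between 9G8-RNAi and control had a Spearman's rho of -0.51 with exonic length, and across the 32 complex I subunits one of -0.69. Across all 9285 tested genes it was -0.48, so the relation was not limited to these genes. The deviation of 9G8-RNAi A alone correlated with length at -0.56 across the subunits and -0.57 across the complex I subunits. Across all tested genes that value was -0.21. The relation was not computed with a library left out. The subunits are short, with a median exonic length of 880 bases against 2043 for all tested genes. These are correlations across genes that share the same 6 libraries, and genes are not independent replicates.

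No count was found in any library for 3 members, the subunits ND-MNLL (X, 7893053 to 7893798, minus strand) and UQCR-14 (X, 16286288 to 16286988, plus strand), and the paralogue COX5BL (2L, 6559431 to 6560133, plus strand). All their exonic bases are shared with another gene, CG45089 on the same strand, CG32576 on the other strand and Trmt6 on the other strand. Among all genes counted, 548 of 552 with all exonic bases shared had no count, or 99.3%, and 132 of 133 where the sharing is with the other strand alone. Of genes that share no exonic base 583 of 12002, or 4.9%, had none. The 0 of these 3 genes is thus that of their class in this table and gives no level. CG32576 itself had 977 to 2682 counts per library, and CG45089, whose own exons are all shared, had none.

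ND-B8, an accessory complex I subunit, was the other subunit at the bottom of the range. It had 108, 6 and 3 counts in 9G8-RNAi A, B and D, against 11, 3 and 2 in control A, B and D. Only 9G8-RNAi A stood clear of the rest, and the gene was not tested. It shares 15.4% of its exonic bases with Gs1l on the other strand, which had 1316 to 3295 counts in every library.

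The L-type paralogues were nearly silent. Together the 24 held 1824 counts over the 6 libraries, or 0.0314% of the counts of the 88 genes, where the 63 subunits held 99.9%. Of the 24, 17 reached 3 counts in at least 1 library, and 7 did not, COX5BL among them. Only 4 passed the filter on low counts: COX7AL2, UQCR-11L, ND-51L1 and UQCR-6.4L. A count of 3 corresponds to 0.0451 to 0.114 CPM by library, below which a gene cannot be told from absent at this depth; such limits cover counting error only.

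COX7AL2 (2L, 2192525 to 2197912, minus strand), a duplicate of the complex IV subunit COX7A, had the most counts of the paralogues because of 1 library. It had 746 counts in 9G8-RNAi A, 75 and 64 in 9G8-RNAi B and D, and 23, 70 and 21 in control A, B and D, which is 29.7, 2.06 and 0.824 against 0.523, 1.33 and 1.04 TMM-scaled CPM. The groups overlapped, since 9G8-RNAi D lay below 2 controls. The log2 difference was 3.48 ± 1.37 (edgeR unadjusted p = 0.0414, adjusted p = 0.918). It was 3.46 with DESeq2 (adjusted p = 0.0727), 1.78 with limma-voom (adjusted p = 0.942), 1.68 with the replicate letter as a block (adjusted p = 0.999) and 0.579 without 9G8-RNAi A. Per length, COX7A was 75.3 times as abundant as COX7AL2 over all libraries, 255 times without 9G8-RNAi A and 14.3 times in 9G8-RNAi A alone. COX7AL2 shares no exonic base with another gene.

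UQCR-11L was the highest of the tested paralogues per length in every library but 9G8-RNAi A, at 2.28 to 4.38 TPM there against 0.626 to 1.61 TPM for COX7AL2. It had 15, 58 and 135 counts in 9G8-RNAi A, B and D against 34, 68 and 36 in control A, B and D, with overlapping groups and a log2 difference of 0.06 ± 0.52 (edgeR adjusted p = 0.988). ND-51L1 had 4, 15 and 33 against 25, 41 and 5 counts and a log2 difference of -0.67 ± 0.61 (edgeR adjusted p = 0.918). UQCR-6.4L had 2, 5 and 23 against 22, 17 and 5 counts and one of -0.97 ± 0.65 (edgeR adjusted p = 0.918). Their partners UQCR-11, ND-51 and UQCR-6.4 were 46.9, 363 and 954 times as abundant per length.

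Of the paralogues not tested, COX7CL (4 to 14 counts per library) and ATPsynepsilonL (2 to 10) were the ones counted in all 6 libraries. The highest counts of the others that reached 3 were 18 for ND-49L in control A, 13 for ND-51L2 in 9G8-RNAi D, 11 for SdhAL in control A, 10 for ATPsynbetaL in 9G8-RNAi D, and 7 for COX4L in 9G8-RNAi B and for COX6AL2 in control B. COX6AL2 shares 67.0% of its exonic bases with other genes, so its counts may be too low. SdhCL reached 6, ND-20L 4, and ATPsynCF6L, COX6AL and ND-B14.5AL 3, each in 9G8-RNAi D. Their partners stood far above them in every library: ND-49 was 802, ND-51 1255 (over ND-51L2), SdhA 1063, COX7C 1299 and ATPsynbeta 6031 times as abundant per length. Control A held most ND-49L counts and many of the SdhAL counts, and without it the ratios were 1517 for ND-49 and 1672 for SdhA.

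**Figure D5:**
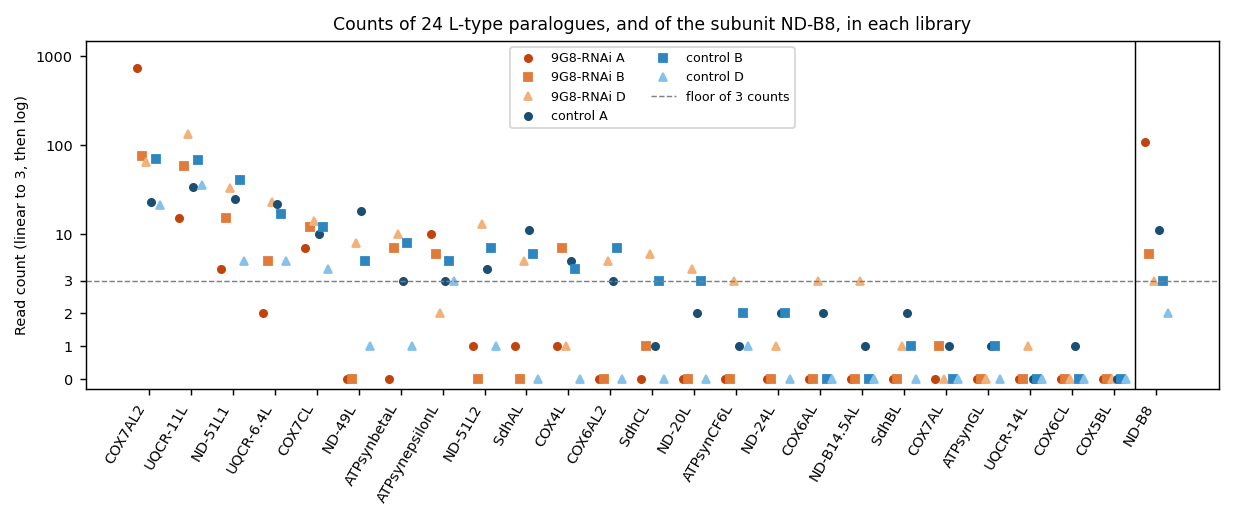
Read counts of the 24 L-type paralogues and, right of the line, of the subunit ND-B8 in each library (axis linear up to 3 and logarithmic above, dashed line at 3 counts). COX7AL2 with 746 counts and ND-B8 with 108 stand out in 9G8-RNAi A, and most other paralogues lie near or under 3 counts.

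Without COX7AL2 the paralogues summed to 1.39, 2.60 and 4.07 CPM of total counts in 9G8-RNAi A, B and D, against 5.80, 4.04 and 1.79 CPM in control A, B and D. The 3 libraries with the lowest sums were those with the most genes without a count, 5896 in 9G8-RNAi A, 5163 in 9G8-RNAi B and 6091 in control D, against 2079 to 3025 in the other 3. Testis markers were low throughout, at 9.12 to 30.3 CPM for 21 genes, with 3 to 16 of them at 0 in a library, and bol and mia made up most of the sum. The defining testis genes betaTub85D, ProtA and ProtB were at or below 0.114 TMM-scaled CPM in every library.

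Other genes of the pathway were read from fixed lists, and 0 of each list passed the threshold in the edgeR fit. Of 7 tested subunits that carry other names, 6 were above 0, with a median log2 difference of 0.41; they include the Rieske protein RFeSP, cytochrome c1 and the complex IV subunits levy and cype. The exception was blw, the catalytic-head partner of ATPsynbeta, at 643, 247 and 487 TMM-scaled CPM in 9G8-RNAi A, B and D against 508, 953 and 424 in control A, B and D. Assembly factors had a median of 0.32 (9 of 9 above 0), carriers of the inner and outer membrane 0.10 (4 of 7), and the 13 protein genes of the mitochondrial genome 0.57 (12 of 13).

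The lists for the cycle that feeds the complexes and for mitochondrial regulators had medians close to the -0.07 of all genes. Tricarboxylic acid cycle genes had a median log2 difference of -0.11 (3 of 9 above 0) and regulators of mitochondrial biogenesis -0.08 (4 of 11). ScsbetaA, a subunit of succinyl-CoA synthetase, read 53.2, 51.9 and 50.4 TMM-scaled CPM in 9G8-RNAi A, B and D against 124, 92.7 and 83.6 in control A, B and D. On this scale its groups did not overlap, with a log2 difference of -0.95 (edgeR unadjusted p = 0.0137, adjusted p = 0.806; DESeq2 adjusted p = 0.0448). In CPM of total counts they did, with 9G8-RNAi D at 58.7 above control D at 53.1. Idh3b, a subunit of isocitrate dehydrogenase, was also lower in each RNAi library in TMM-scaled CPM, with -0.29 (edgeR adjusted p = 0.918). In CPM of total counts its 9G8-RNAi D at 93.8 was above control D at 54.0. The difference between these lists and the complexes was not tested.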

How the data were processed

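Per the submitters' processing notes, reads were trimmed with Trimmomatic 0.36, aligned with STAR 2.5.2b to BDGP6 and counted with featureCounts of Subread 1.5.2. The authors deposited raw read counts per gene with exonic length for 6 libraries, and no source used here gives the strand setting. The unit of the deposited length column is bases. From these, TPM was computed from counts and length, and counts were tested with edgeR 4.0.16 (TMM, filterByExpr, robust quasi-likelihood, Benjamini-Hochberg over 9285 genes, threshold 0.05), checked on simulated data; SEs were taken from the fold change and its F statistic; DESeq2 1.42.0 and limma 3.58.1 were alternatives. Symbols came from Ensembl release 115, whose gene spans equal the deposited ones for all 88 genes. Exon overlaps were computed from the exon coordinates deposited with the counts. Members, lists, roles and named genes were chosen with earlier results of these data known.

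The genes named were any past the threshold, in each complex the 3 with the smallest unadjusted p (given with tests) and the 3 of highest mean TPM (given as levels), every paralogue with at least 3 counts in a library with its partner, x16, and members whose groups did not overlap. Genes named beyond this (ND-49, ATPsynbeta, UQCR-C2 as a fold, ND-B8, ScsbetaA, Idh3b, ND-13A, the members at 0 and those of the relative levels), the core and accessory split, the exon-sharing classes, the length relation, complex medians over subunits alone, and ratios and mean levels with 1 library left out were chosen after the values were seen. Marker lists also held progenitor genes, of which 1 of 3 was found and ran from 0.784 to 4.84 CPM. Replicate letters did not pair the libraries: deviations of same-letter libraries from their group means correlated at -0.018, -0.347 and -0.46. No 2 libraries agreed within sampling noise. Promoter and protein sequences were not used here.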

Additional observations from a re-analysis of the deposited data

How the results depend on the processing

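No member passed the threshold under any of the 15 other settings or libraries left out, so no call was lost. The count of all genes called was 104 with DESeq2, 2 with limma-voom, 50 with no filter on low counts, 17 with total counts as the only scaling, and 0 with the replicate letter as a block (11 as reported). Leaving out 1 library at a time gave 0 to 11. The replicate block changed no call of a member, and turned UQCR-11L from 0.059 to -0.022 and UQCR-C2 from -0.402 to 0.02. ND-49, at 0.028, turned to -0.211 with total counts as the only scaling, and ATPsynbeta, at -0.009, to 0.019 with no filter and to 0.033 with upper-quartile scaling. ScsbetaA passed the threshold with DESeq2 alone (adjusted p = 0.0448; 0.477 to 1.0 elsewhere). The letters share only a name, so this block is no paired test. Leaving out 1 library moved the log2 difference of x16 between -0.862 and 0.182, ATPsynF between -0.123 and 1.10, ATPsyngamma between -0.005 and 0.519, COX7B between -0.07 and 0.833, SdhB between -0.785 and 0.156, UQCR-11L between -0.23 and 0.437, UQCR-6.4 between -0.298 and 0.937, UQCR-C1 between -1.11 and 0.052, UQCR-C2 between -0.905 and 0.633, ND-49 between -0.037 and 0.171, and ATPsynbeta between -0.103 and 0.136; the cause was not tested. Shares of the complexes depend on the measure by construction. As CPM with no length, complexes I to V held 31.9%, 5.35%, 7.66%, 26.9% and 28.2%, against 33.6%, 4.46%, 5.69%, 32.2% and 24.02% as reported. With the median over members in place of the sum, complexes I, III, IV and V held 21.1%, 18.6%, 22.3% and 33.9%. With 3 libraries a group precision is limited: the interval of ATPsynbeta, steady in TMM-scaled CPM, was still -0.86 to 0.85 on the log2 scale.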
